A study of Bos grunniens with 18 samples.

Results

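Peaks of N6-methyladenosine (m6A) that lie across a splice junction were taken from 3 tables in which the authors compared regions of the yak (Bos grunniens) epididymis. A peak was counted as intron-spanning when its listed length was under 1000 bases and smaller than the distance from its start to its end in the genome, so that the bases in between belong to no part of the peak. Of the 41804 rows of the 3 tables, 22990 were intron-spanning. Another 17056 rows under 1000 bases had a length equal to their genomic distance and are called contiguous here. Lengths and positions alone chose the peaks, and no fold or p-value did.

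The methyl mark is placed on adenosines of messenger RNA by a nuclear complex built around METTL3 and METTL14, and YTH-domain proteins and other readers bind it. In mammalian cells, the exon junction complex, which is deposited beside each splice junction, has been found to keep methylation away from junctions, so that the mark is known mostly from long exons and from the surroundings of stop codons. The epididymis, where sperm mature, is a duct whose secretions differ between the head (caput), the body (corpus) and the tail (cauda).

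The study took epididymides of 6 healthy adult male yaks aged 4 years, after sexual maturity, and divided each into caput, corpus and cauda. Poly(A) RNA was fragmented and pulled down with an antibody against m6A, and 3 pulled-down (RIP) and 3 input libraries were sequenced for each of the 3 regions, 18 libraries in all. Since no label ties a library to an animal, the spread behind the authors' p-values may be technical. The tables compare corpus with caput, cauda with caput and cauda with corpus, and there is 1 list per region of adenosines that the authors scored as candidates.

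No values per library were used, so no replicate error can be given for a peak, and the sequencing depth behind each peak is unknown. No source used here says whether the folds are relative to input. In whole tissue, fewer cells of a type and less RNA per cell cannot be told apart. The labelled tissue was not checked against expressed markers, because the expression values could not be tied to a region. The build behind the coordinates is not given in the sources, and no sequence is shown because no genome was used. The 3 tables share libraries, so a peak's values in them are not independent.

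Intron-spanning peaks made up a nearly constant part of each table. They numbered 7762 for corpus over caput (57.5% of the peaks under 1000 bases), 7580 for cauda over caput (57.3%) and 7648 for cauda over corpus (57.4%). Once peaks with the same coordinates were counted once, there were 17239 distinct intron-spanning and 13042 distinct contiguous peaks. Few were found at the same coordinates in all 3 tables, namely 6.18% of the intron-spanning and 5.41% of the contiguous peaks, while 72.8% and 74.6% stood in a single table. The genes repeated more often than the peaks: of 6770 genes with an intron-spanning peak, 3513 (51.9%) had one in all 3 tables.

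The introns inside the peaks were long. The bases left out of a peak had a median of 3329.5 in the corpus over caput table, with a lower quartile of 1118 and an upper quartile of 9036, and the medians were 3351 for cauda over caput and 3384 for cauda over corpus. In the corpus over caput table, 1731 peaks (22.3%) left out at least 10000 bases and 72 left out at least 100000. The largest total, 406998 bases, was that of a 672-base peak of NXPH1, a neurexin-binding secreted protein, at chr4:112378610-112786279. At the other end, 283 distinct peaks (1.64%) left out fewer than 50 bases, which is short for an intron. A 788-base peak of HSPA1A, the inducible HSP70 chaperone, missed 3 bases, and this gene is known in mammals to have no intron.

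Intron-spanning peaks were longer than contiguous ones when introns were not counted. Their median length was 290.5 bases for corpus over caput (quartiles 199 and 446), against 249 bases for contiguous peaks (quartiles 151 and 394). The medians in the cauda tables were 292.5 and 292 bases, against 249 and 248 bases. TOP1 (DNA topoisomerase), DENND4A and IQGAP2 had peaks of 999 bases, just inside the limit. CRYBG1, Taok1 and TBCCD1 had peaks of 1000 bases, just outside it, and none of these 6 peaks had an adjusted p-value under 0.05 in the authors' deposited tables.

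**Figure D1:**
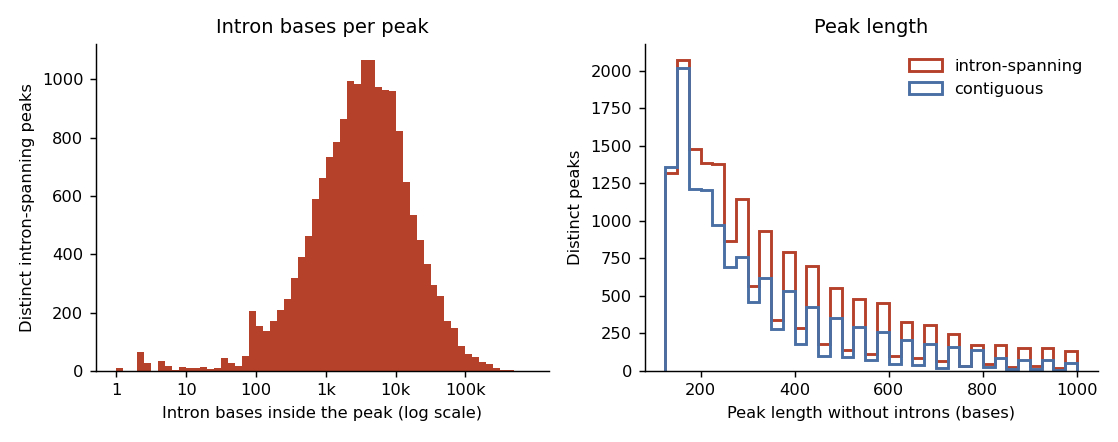
Bases left out of each distinct intron-spanning peak, on a log scale (left), and the length without introns of distinct intron-spanning (red) and contiguous (blue) peaks in bases (right), each as a number of peaks. The gaps centre near 3442 bases, the median over the 17239 distinct peaks, and both kinds of peak are most frequent near 150 bases, with intron-spanning peaks more frequent at most greater lengths.

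Most genes carried a single intron-spanning peak. For corpus over caput, 3549 of 5252 genes (67.6%) had 1, and the shares were 69.5% for cauda over caput and 68.7% for cauda over corpus. Giant genes known to have many exons carried the most: Syne2, which links the nucleus to the cytoskeleton, had 17, 13 and 18 intron-spanning peaks in the 3 tables, the highest number in each. Macf1, a giant actin and microtubule linker, had 14 for corpus over caput under 1 of its gene identifiers and 12 under the other. UTRN (utrophin), the laminin chain gene LAMA4 and the centriolar satellite gene PCM1 had up to 11, 8 and 8. Taking the 9529 genes with any peak under 1000 bases, 3969 (41.7%) had only intron-spanning peaks, 2801 (29.4%) had both kinds and 2759 (29.0%) had only contiguous ones.

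The share of peaks across an intron varied between groups of genes. Among 25 gene lists, the share of peaks that spanned an intron was highest for cilium and axoneme genes (80 of 92 peaks, 87.0%) and translation factors (91 of 106, 85.8%), against 57.4% of the 40046 peaks of all genes. It was 80.6% for m6A readers, 79.3% for splicing factors, 76.3% for cytoskeleton and smooth muscle genes, 76.1% for cytosolic ribosomal proteins and 72.6% for the exon junction complex and its partners, while collagens and matrix genes had 150 of 200. Of 23 cilium genes with a peak, 16 had only intron-spanning peaks, 5 had both kinds and 2 had only contiguous peaks. Over all genes these shares were 41.7%, 29.4% and 29.0%.

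The lists at the other end were regulators and cell type genes. Zinc finger transcription factors had 72 of 198 peaks across an intron (36.4%). Of their 30 genes, 9 had only contiguous peaks, near the 29.0% of all genes. Only 3 had intron-spanning peaks alone, beside 41.7% of all genes, and 18 had both kinds, beside 29.4%. The m6A readers had an intron-spanning peak in 9 of 13 genes, beside 6770 of 9529 over all genes. In 8 of the 13 all peaks were intron-spanning, beside 41.7% of all genes, and 1 had both kinds. Genes with several peaks, or with peaks in several comparisons, count more than once in the shares of peaks. Posterior HOX genes, which pattern the body axis, had 6 of 15. The writers of the mark had 21 of 44 (47.7%) and its erasers 4 of 9 (44.4%). Sperm and spermatid genes, macrophage and lymphocyte genes and clear cell genes each stood at 50.0%, on 30, 62 and 46 peaks. Epididymal secretory genes (62.2% of 37 peaks) and beta-defensins (61.5% of 26) were close to the share over all genes.

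**Figure D2:**
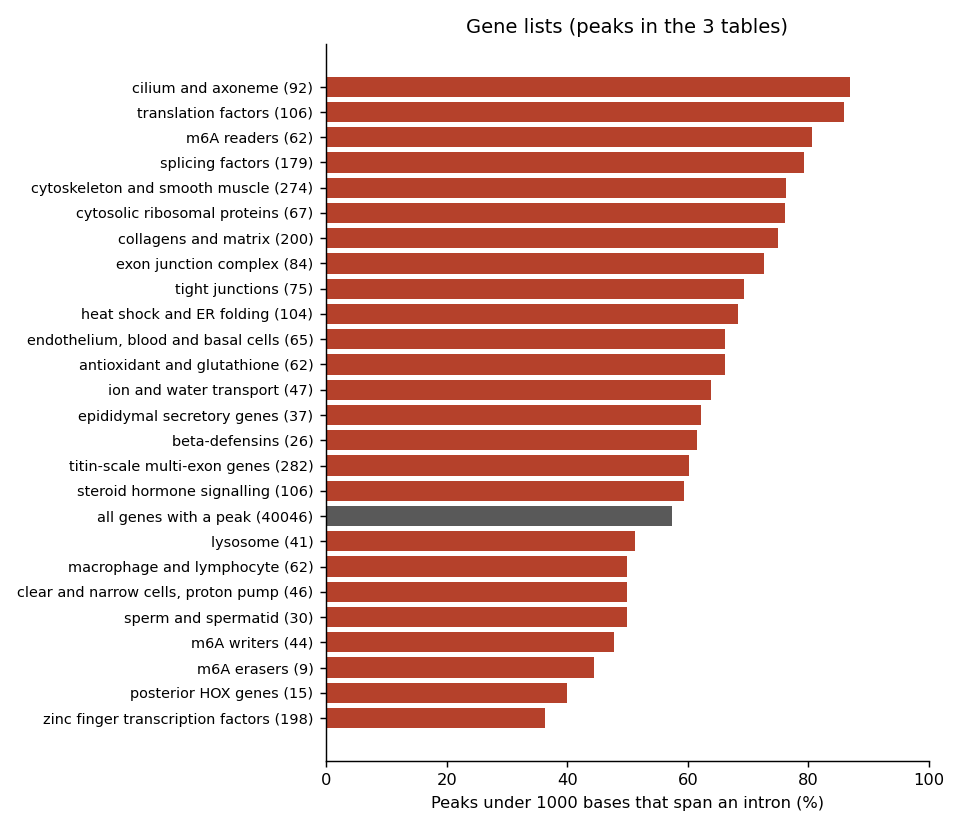
Share of peaks under 1000 bases that span an intron, in percent, for 25 gene lists (red) and for all genes with a peak (grey), over the rows of the 3 comparison tables, with the number of peaks in parentheses. Cilium and axoneme genes stand at 87.0% and zinc finger transcription factors at 36.4%, on either side of the 57.4% of all genes.

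The ontology terms of the annotation, with at least 40 genes each, varied as widely over 330 terms. The lowest share belonged to G protein-coupled receptor activity, with 36 of 199 peaks across an intron (18.1%), followed by homophilic cell adhesion via plasma membrane adhesion molecules (36.5%) and DNA-binding transcription factor activity, RNA polymerase II-specific (37.7% of 2348 peaks). Many G protein-coupled receptor genes are known to have few introns or none in their coding sequence. The highest share belonged to the catalytic step 2 spliceosome (200 of 238 peaks, 84.0%), followed by microtubule-based movement (83.5%), microtubule motor activity (83.0%), mRNA splicing via the spliceosome (81.7%) and centriole (80.9%). By chromosome, the share ran between 43.0% on chromosome 20 and 65.1% on chromosome 6. No test was made of these shares, since peaks of 1 gene share its exons and most terms share genes.

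A few peaks held a peak of another gene between their ends. Whether it lay in an intron was not checked. For corpus over caput, 47 intron-spanning peaks (0.61%) held a whole peak of another gene between their ends, against 19 contiguous peaks (0.33%), and 37 of the 47 held one of a gene on the opposite strand. The numbers were 34 and 45 in the cauda over caput and cauda over corpus tables, and in no table did a peak hold another peak of its own gene.

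The candidate lists give adenosines with a score that the authors predicted, and a position with a score of at least 0.557 was classed by them as an m6A site. Candidates were counted only in peaks that stood with identical coordinates in a list and in a comparison table. Of 14542 peaks of the caput list, these were 3844 intron-spanning and 2754 contiguous ones. The corpus list of 13798 peaks gave 3779 and 2722, and the cauda list of 14182 peaks gave 3562 and 2670. Statements on candidates hold for these peaks, not for all 17239 distinct intron-spanning ones. The lists share positions, so the 3 regions do not repeat each finding independently. Intervals on shares of candidates are 95% Wilson intervals and cover counting error only.

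Pooled over peaks, the lists gave slightly more candidates per kb of listed peak length for intron-spanning peaks. They held 19.5, 19.6 and 20.3 candidates per kb in caput, corpus and cauda, against 18.9, 19.1 and 19.1 in contiguous peaks. The middle peak went the other way, with medians of 17.2, 17.1 and 17.8 per kb against 18.2, 19.9 and 19.9. A small number of very dense peaks separated the pooled value from the median: 55, 54 and 49 intron-spanning peaks (1.43%, 1.43% and 1.38%) were denser than any contiguous peak of the same list. Leaving them out can only lower the value of intron-spanning peaks, which then stood at 18.3, 18.4 and 18.9 per kb, so no direction is read from it.

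The densest of these was a 146-base peak of Hoxc4, a patterning gene, at chr5:81740168-81784977, with 72 candidates, or 493 per kb of listed length. Those candidates did not lie within 146 bases: stretches in which neighbours were at most 50 bases apart covered 921 bases. Next came a 201-base peak of Rabep1, an endosome fusion gene, with 77 candidates, and peaks of RIOK1, a kinase of ribosome assembly, with 132 candidates for a listed length of 347 bases and 133 for 396, whose candidates also covered more bases than the listed length. The lists give positions of such peaks in several runs that each start again from one end. More than 1 run was found for 68.2%, 69.3% and 69.0% of intron-spanning peaks in caput, corpus and cauda, and for 51.9%, 51.5% and 51.9% of contiguous peaks. In the Hoxc4 peak the longest run held 34 candidates. Stretches of candidates covered more bases than the listed length in 45, 47 and 46 intron-spanning peaks of caput, corpus and cauda. Those peaks held 6.41%, 6.80% and 7.65% of the candidates of all intron-spanning peaks. For them a value per kb is not a density within the peak, and the pooled density of intron-spanning peaks includes them. The length of a contiguous peak equals its genomic distance, so this cannot occur there and the 0 such peaks found are no result.

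Fewer of the candidates in intron-spanning peaks were classed as m6A sites. The share was 17.5% in caput (95% interval 17.0% to 17.9%), against 22.2% in contiguous peaks (21.5% to 22.8%). It was 17.7% in corpus (17.2% to 18.2%) against 22.7% (22.0% to 23.3%), and 17.7% in cauda (17.2% to 18.2%) against 22.3% (21.7% to 23.0%). For the very high confidence class, with scores of at least 0.676, the shares were 1.68%, 1.72% and 1.61% in intron-spanning peaks against 2.99%, 3.09% and 2.97% in contiguous ones. Per kb of peak this made 3.41, 3.48 and 3.58 classed sites against 4.18, 4.32 and 4.26.

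The lower share was seen in all 6 length classes and in genes with both kinds of peak, pooled together and not compared gene by gene. In peaks of 135 to under 175 bases 15.2%, 15.5% and 13.9% of candidates were classed in intron-spanning peaks of caput, corpus and cauda, against 19.3%, 22.7% and 20.5% in contiguous peaks. In peaks of 600 to under 1000 bases the shares were 18.0%, 17.9% and 17.7% against 22.7%, 22.1% and 21.7%. Among the 517, 528 and 484 genes with both kinds of peak in a list, 18.1%, 17.9% and 18.2% of candidates were classed in their intron-spanning peaks and 21.6%, 22.6% and 23.1% in their contiguous peaks. A peak with no classed site at all was seen in 44.0%, 43.9% and 43.7% of intron-spanning peaks, against 41.5%, 38.8% and 39.8% of contiguous peaks. The class rests on a predicted score, not on a measured level of methylation at each base.

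**Figure D3:**
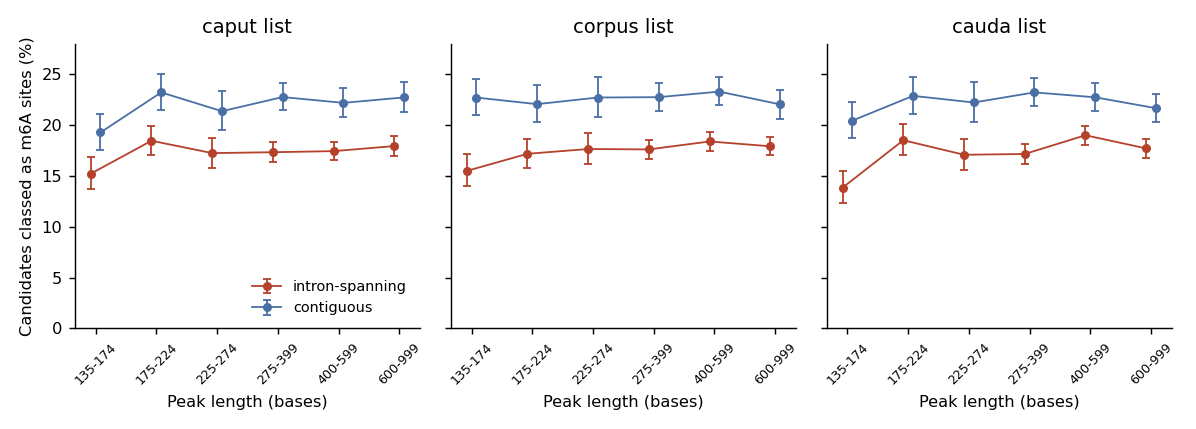
Share of candidate adenosines classed as m6A sites, in percent, by peak length in bases, for intron-spanning (red) and contiguous (blue) peaks of the caput, corpus and cauda lists, with 95% Wilson intervals. Intron-spanning peaks lie below contiguous peaks in all 6 length classes of each list.

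In most intron-spanning peaks the candidates lay in more than 1 group. Positions were put in 1 group unless a gap longer than the peak itself lay between them. Groups lie on different exons only where all candidates are inside the peak. That does not hold for peaks such as that of Hoxc4, and exons were not checked. On that count 42.0% of intron-spanning peaks in caput had candidates in 2 groups and 24.5% in 3 or more, while 33.6% had all of theirs in 1. The corpus and cauda values were 41.3% and 41.0% for 2 groups, and 26.2% and 26.2% for 3 or more. In peaks whose genomic distance was over 2 times their length, 26.7%, 25.8% and 26.0% of candidates lay within 1 peak length of the 5′ end, against 36.2%, 35.8% and 36.1% near the 3′ end, with the rest in the middle. The classed share was 16.9%, 17.2% and 17.1% at the 5′ end, 16.7%, 17.1% and 16.8% in the middle and 18.7%, 18.5% and 18.9% at the 3′ end.

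Single peaks show these patterns. HSCB, a co-chaperone of iron-sulfur cluster assembly, had a 437-base corpus peak at chr16:75625639-75636392 whose 12 candidates fell in 4 groups of 3, and 7 of them were classed, with 2, 2, 2 and 1 per group. LGR4, the R-spondin receptor that mice need for a normal epididymis, had a 300-base peak at chr13:8872678-8874147 with all 8 candidates, 3 of them classed, in 1 group near the 3′ end. KDM3B, a histone demethylase, had 14 candidates in a 647-base peak, of which 12 lay in the last group, and the 1 at position 54087867 of chromosome 8 scored 0.866. In NXPH1, the 28 candidates lay in 3 groups, with 12 beside the 3′ end and another 13 over 100000 bases from them. Those 13 ran from position 112491188 to 112491991 of chromosome 4, wider than the 672-base peak, and whether all lie inside it was not checked.

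Other peaks held many candidates and few sites. FHAD1, named for its forkhead-associated domain, had 12 candidates in 3 groups and EURL had 17 in 3 groups, and none was classed. TEKT1, which encodes the ciliary filament protein tektin, had 10 candidates in 3 groups, with 1 classed in the middle group. The highest scores in intron-spanning peaks were 0.896 in Ankrd17, an ankyrin-repeat gene (chromosome 6, position 32903491), and 0.874 in the zinc finger gene MAZ (chromosome 26, position 18031836). The lists gave 20 classed sites each for a 199-base peak of ZAR1L, a relative of the oocyte gene ZAR1, and for the 201-base peak of Rabep1, the most per kb of listed length. Their candidates covered 1293 and 770 bases, more than the peaks themselves, so these are not sites per base of the peak.

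**Figure D4:**
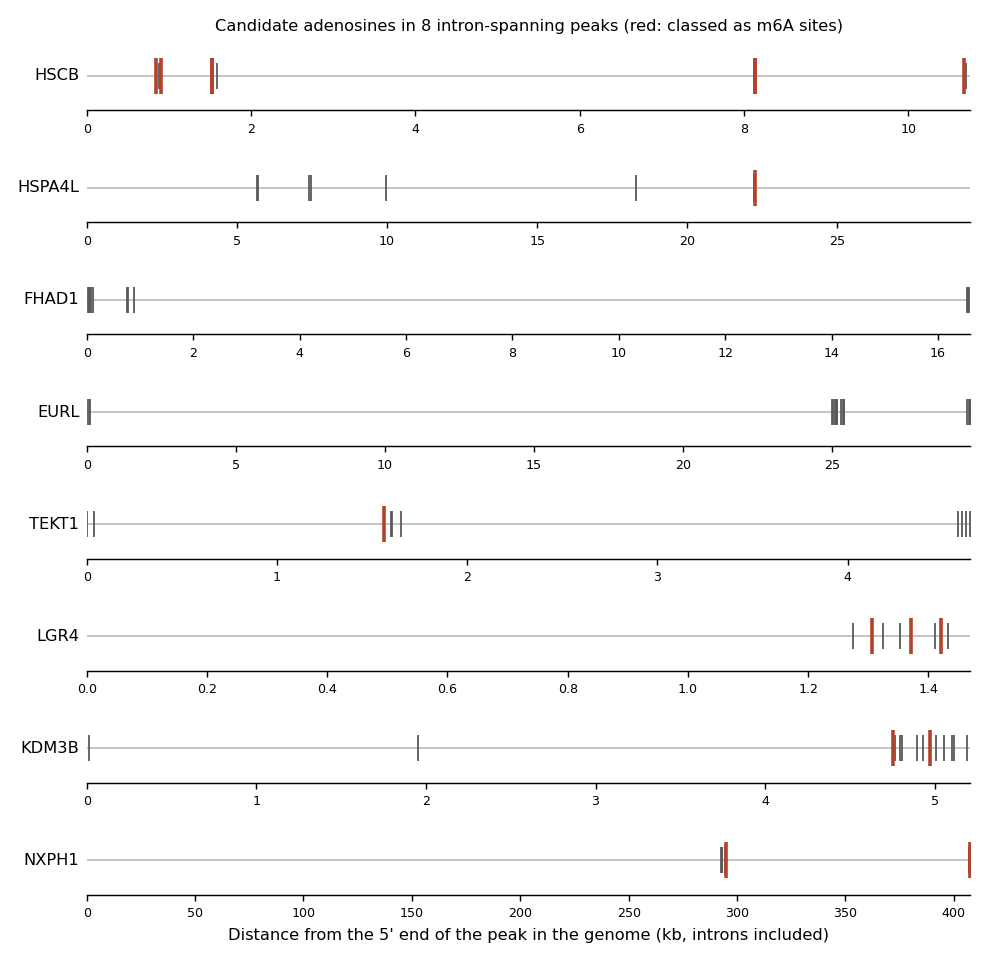
Candidate adenosines in 8 intron-spanning peaks, by distance in kb from the 5′ end of the peak with introns included. Grey ticks are unclassed candidates and red ticks are classed m6A sites. The groups of ticks in HSCB, EURL and TEKT1 are separated by gaps longer than the peak, while the 8 candidates of LGR4 lie together.

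Between regions, a small part of the intron-spanning peaks changed. A peak is called here when its adjusted p-value in the authors' deposited table is under 0.05. For corpus over caput 231 intron-spanning peaks were called (2.98%, 95% Wilson interval 2.62% to 3.38%), against 157 contiguous peaks (2.74%, 2.35% to 3.20%), where 2.98% of all 14061 peaks were called. For cauda over caput the numbers were 171 (2.26%, 1.95% to 2.62%) against 121 (2.14%, 1.79% to 2.55%), beside 2.27% of all peaks. For cauda over corpus they were 161 (2.11%, 1.81% to 2.45%) against 88 (1.55%, 1.26% to 1.91%), beside 1.96% of all peaks. The 2 intervals of this last comparison overlap at their edges, and the intervals treat peaks of 1 gene as separate. In all, 465 genes had a called intron-spanning peak, and 83 of them had one in 2 or more tables.

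The calls were split by direction as follows. Of the called intron-spanning peaks, 86 were higher and 145 lower in corpus than in caput, beside 1.12% and 1.86% of all peaks called higher and lower. In cauda over caput 97 were higher and 74 lower, beside 1.41% and 0.861% of all peaks, and in cauda over corpus 92 were higher and 69 lower, beside 1.24% and 0.719%. The higher calls thus made up 56.7% and 57.1% of the called intron-spanning peaks in the cauda comparisons, against 70.2% and 69.3% of the called contiguous peaks. In corpus over caput they made up 37.2% against 36.3%. These differences were not tested.

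The folds of intron-spanning peaks lay nearer to 0. In the authors' deposited tables, their median log2 fold was -0.0068 for corpus over caput, 0.0165 for cauda over caput and 0.014 for cauda over corpus, against -0.038, 0.088 and 0.092 for contiguous peaks. The median absolute log2 fold was 0.187, 0.201 and 0.188 against 0.228, 0.250 and 0.237. Folds past 2-fold were seen in 175, 157 and 158 intron-spanning peaks (2.25%, 2.07% and 2.07%), against 200, 182 and 172 contiguous peaks (3.49%, 3.22% and 3.03%), beside 2.67%, 2.45% and 2.37% of all peaks.

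Lower absolute folds in intron-spanning peaks were also seen between peaks of like length. The absolute log2 fold in the authors' deposited tables was smaller in longer peaks of both kinds, and for corpus over caput the medians of intron-spanning peaks were 0.275 at 135 to under 175 bases and 0.122 at 600 to under 1000 bases, against 0.323 and 0.139 in contiguous peaks. For cauda over caput the first of these classes stood at 0.283 against 0.343, a wider gap than over all lengths. With contiguous peaks weighted to the lengths of intron-spanning ones, their median absolute log2 folds were 0.217, 0.240 and 0.227. In genes that had both kinds of peak, the medians were 0.207, 0.216 and 0.209 for intron-spanning peaks and 0.229, 0.245 and 0.238 for contiguous ones. The calls in those genes were 2.86%, 2.49% and 2.47% of intron-spanning peaks against 2.39%, 1.71% and 1.74% of contiguous peaks.

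**Figure D5:**
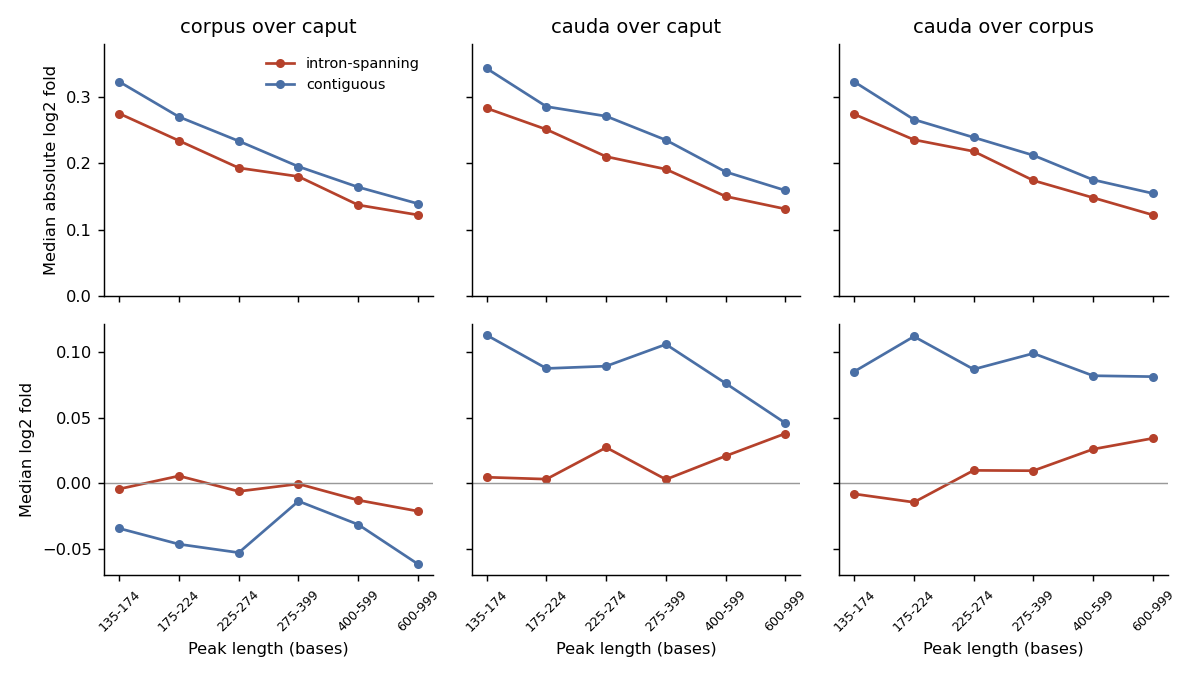
Median absolute log2 fold (top) and median log2 fold (bottom) in the authors' deposited tables, by peak length in bases, for intron-spanning (red) and contiguous (blue) peaks in the 3 comparisons. The absolute fold is smaller in longer peaks of both kinds and is lower in intron-spanning peaks in each length class, while contiguous peaks lie above 0 in both cauda comparisons.

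The share called was not ordered alike by the total of intron bases in the 3 comparisons. For corpus over caput, 2.06% of peaks with 50 to under 1000 intron bases were called, 2.92% with 1000 to under 3000, 3.01% with 3000 to under 10000 and 3.99% with 10000 or more. The median peak length grew across these classes too, with 201 bases in the first and 349 in the last. In cauda over caput the shares were 2.06%, 2.02%, 2.41% and 2.43%, and in cauda over corpus they were 1.74%, 2.0%, 2.84% and 1.73%, with no steady order. Of the 134, 127 and 122 peaks with under 50 intron bases, 2, 4 and 0 were called.

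The folds of peaks held by 1 list alone gave the direction of the tables. Lists and folds come from the same regions, so the signs, the sizes and the sides of the calls in such peaks are no result. Intron-spanning peaks found with the same coordinates in the corpus list and not in the caput list (1588) had a median of 0.107 in the log2 folds of the authors' deposited table of corpus over caput, and those in the caput list alone (1617) had -0.133. The first group held 27 called higher and 5 lower, and the second 3 higher and 57 lower. For cauda over caput the medians were 0.148 and -0.118, and for cauda over corpus 0.125 and -0.12. The 944 peaks of both the corpus and the caput list had a median of -0.0092, with 4 called higher and 3 lower. Their median absolute log2 fold was 0.127, against 0.174 in peaks of the corpus list alone and 0.197 in peaks of the caput list alone. The largest group, 3613 peaks in neither list (46.5%), had the highest value, 0.211, with 52 called higher and 80 lower.

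Of the intron-spanning peaks of genes with a symbol, the 10 with the lowest adjusted p-values for corpus over caput were all lower in corpus. SEL1L2, a relative of the endoplasmic reticulum degradation adaptor SEL1L, had a log2 fold of -3.37 in a 196-base peak at chr12:83870380-83897570, and MROH2B, a HEAT-repeat gene, had -1.70 in a 150-base peak, both with an adjusted p-value listed as 0 in the authors' deposited table. Tsks, the substrate of testis-specific kinases in spermatids, had -2.91 in a 299-base peak at chr20:58939632-58951450 (the authors' deposited table, adjusted p = 1.26e-08). A longer Tsks peak with the same start, of 597 bases, stood at -0.032 for cauda over caput in the authors' deposited table and was not called. The coiled-coil gene CCDC198 had -1.81 (adjusted p = 7.41e-10) and FHAD1 had -1.51 (adjusted p = 5.01e-08), both from the authors' deposited table.

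Several of these peaks ran over many kilobases. HSPA4L, a chaperone of the HSP110 family, had a 986-base peak at chr16:32805043-32834476 that left out 28448 bases and was lower in corpus, with a log2 fold of -0.58 (the authors' deposited table, adjusted p = 7.24e-10). In EURL an 846-base peak was lower in corpus, with a log2 fold of -0.84 (adjusted p = 1.38e-06), and a 598-base peak with the same start was higher in cauda than in corpus, at 0.62 (adjusted p = 0.013), both in the authors' deposited tables. Fyb1, an adaptor of T cell signalling, had -0.73 and CCDC83, a coiled-coil gene, had -0.49 for corpus over caput in the authors' deposited table. ADAM28, a membrane metalloprotease, completed the 10 with -0.49 in an 848-base peak (the authors' deposited table, adjusted p = 5.25e-07).

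Peaks of cilium and transport genes were also called in that comparison. TEKT1 had a log2 fold of -0.45 (adjusted p = 0.014) and DNAI2, an outer dynein arm chain, -0.40 (adjusted p = 0.0023) in corpus over caput, while RSPH4A, a radial spoke head gene, had 1.22 (adjusted p = 0.014), all in the authors' deposited table. The same RSPH4A peak, at chr10:58019911-58021475, stood at -0.58 for cauda over caput (the authors' deposited table, adjusted p = 0.0017). Of 25 cilium peaks 2 were higher and 2 lower in corpus than in caput, beside 1.12% and 1.86% of all peaks. Of 34 peaks 1 was higher and 1 lower in cauda than in caput, beside 1.41% and 0.861%, and of 21 peaks none was called for cauda over corpus, beside 1.96%. The other calls were Ift88 (intraflagellar transport), higher in corpus than in caput, and DNAH11, a dynein heavy chain, higher in cauda than in caput, which were named after their values were seen.

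CFTR, the chloride channel of epithelia, had a 249-base peak at -0.98 for corpus over caput (the authors' deposited table, adjusted p = 0.02), and the same peak stood at -0.19 in that of cauda over caput and was not called. USH1C, the scaffold harmonin, was lower in both regions than in caput, with log2 folds of -2.76 in corpus (adjusted p = 0.025) and -2.31 in cauda (adjusted p = 0.0022) in the authors' deposited tables. The ubiquitin ligase HECTD3 did likewise, at -1.46 and -1.24 in the authors' deposited tables. WDR93, a WD-repeat gene, had -1.74 in corpus and -1.25 in cauda over caput in the authors' deposited tables.

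Peaks called higher in corpus were fewer. NRG3, a neuregulin growth factor, had the highest called value of that comparison, a log2 fold of 2.75 in a 150-base peak (the authors' deposited table, adjusted p = 0.014). PTPRC, the leukocyte antigen CD45, had 0.93 in a 349-base peak (the authors' deposited table, adjusted p = 0.0055), and the same peak stood at -0.52 for cauda over corpus and was not called. SLC16A1, the lactate transporter MCT1, was higher in corpus than in both other regions: its 496-base peak at chr3:42319137-42321910 had 0.96 for corpus over caput (adjusted p = 0.00028) and -1.0 for cauda over corpus (adjusted p = 3.02e-06) in the authors' deposited tables. Of its 3 contiguous peaks in the same authors' deposited tables, the nearest, of 299 bases, had 1.5 and -1.72, both called. The other two had 0.39 and 0.069 for corpus over caput and -0.725 and -0.27 for cauda over corpus in the authors' deposited tables and were not called. Of the intron-spanning peaks with an unadjusted p under 0.05 for corpus over caput, those with the 3 highest folds were not called: AP1S2, a clathrin adaptor subunit, had 6.54, KHSRP, an RNA-binding protein, 4.75 and TXN (thioredoxin) 3.95 in the authors' deposited table, all in peaks of 148 to 151 bases.

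In cauda over caput, the peaks with the lowest adjusted p-values had large folds and very small ones. PHACTR3, a regulator of actin and of a phosphatase, had a log2 fold of -2.24 in a 399-base peak at chr12:50003499-50044560 (the authors' deposited table, adjusted p = 3.47e-09). Klhl14, a kelch-repeat gene, had 0.93 in a 650-base peak at chr21:19572602-19576289 (the authors' deposited table, adjusted p = 3.55e-07). FCRL5, an Fc receptor-like gene of B cells, had 2.36, and SMS, spermine synthase, had 1.10 (the authors' deposited table, both adjusted p = 6.31e-05). On the other side, CCDC113, a ciliary coiled-coil gene, had -0.13 (adjusted p = 3.8e-08) and NDUFB9, a subunit of respiratory complex I, 0.047 (adjusted p = 1.12e-05), both from the authors' deposited table.

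Such small called folds were seen in each comparison. Of the called intron-spanning peaks, 17 of 231, 23 of 171 and 18 of 161 had an absolute log2 fold under 0.2, and 55, 36 and 32 had at least 1. SPARC, a collagen-binding matrix protein, had 0.026 for cauda over caput (adjusted p = 7.59e-05) and 0.11 for cauda over corpus (adjusted p = 8.51e-06) in the authors' deposited tables, in a peak that kept its 350 bases and its coordinates. HSCB, whose sites were described above, had -0.11 for corpus over caput (adjusted p = 0.00015) and -0.010 for cauda over corpus (adjusted p = 0.00032) in the authors' deposited tables.

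The peaks of ADAM28 moved unequally. In the authors' deposited table of cauda over caput, its 349-base peak at chr7:6759721-6766875 had a log2 fold of -2.26 (adjusted p = 3.39e-06) and its 150-base peak at chr7:6736159-6759385 had -1.90 (adjusted p = 0.0058). Its 848-base peak at chr7:6646186-6679107 had 0.13 (the authors' deposited table, adjusted p = 7.76e-05). For corpus over caput that 848-base peak was lower, at -0.49, while the 150-base peak stood at -0.15 and was not called in the authors' deposited table. A 399-base peak with the same start as the 349-base one was called there at only -0.0186 (the authors' deposited table, adjusted p = 0.025). All 9 ADAM28 rows of the tables were intron-spanning.

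Calls among beta-defensin peaks came from DEFB118 and DEFB119. DEFB118, an antimicrobial peptide that binds sperm in primates, had peaks of 145 and 289 bases with log2 folds of -1.57 (adjusted p = 0.0066) and -0.80 (adjusted p = 0.0048) for cauda over caput in the authors' deposited table. The same peaks stood at 0.45 and 0.14 in the authors' deposited table of corpus over caput and were not called. DEFB119 was lower in cauda than in corpus in a 200-base peak, with a log2 fold of -0.475 (the authors' deposited table, adjusted p = 0.00039). In all, 2 of 5 beta-defensin peaks, both of DEFB118, were lower in cauda than in caput, beside 0.861% of all peaks. For cauda over corpus 1 of 4 was lower, beside 0.719%, and none of 7 was called for corpus over caput, beside 2.98%. Epididymal secretory genes had 1 higher and 2 lower of 6 for cauda over caput, beside 1.41% and 0.861% of all peaks. For corpus over caput 2 of 9 were lower, beside 1.86%, and none of 8 was called for cauda over corpus, beside 1.96%. All these calls were ADAM28 peaks.

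In cauda over corpus, CDHR3, a cadherin-related gene, was higher in cauda with a log2 fold of 1.12 in a 400-base peak (the authors' deposited table, adjusted p = 8.51e-06). A 250-base CDHR3 peak had 1.09 for cauda over caput (the authors' deposited table, adjusted p = 0.00038). STX6, a syntaxin of the trans-Golgi network, was higher in cauda than in both other regions, with 1.53 over corpus and 1.17 over caput in the authors' deposited tables, in the same 197-base peak at chr14:61553231-61559751. PDGFRA, a growth factor receptor of stromal cells, was lower in cauda, at -0.77 over corpus (adjusted p = 0.027) and -0.92 over caput (adjusted p = 0.006) in the authors' deposited tables. LGR4 was lower as well, at -0.55 and -0.60 in the authors' deposited tables.

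A few peaks of matrix and splicing genes were called. LAMA4 was lower in cauda than in corpus in a 200-base peak, with a log2 fold of -1.90 (the authors' deposited table, adjusted p = 0.0044), while its other 7 intron-spanning peaks of that table were not called. SNRNP70, the U1 snRNP protein, had 2 peaks lower in cauda than in corpus, at -0.35 and -0.94, and PRPF31, of the tri-snRNP, had 1 higher at 1.05 in the authors' deposited table. Those made 3 calls among 52 splicing factor peaks there, beside 1.96% of all peaks, and 0 of 49 were called for corpus over caput and 0 of 41 for cauda over caput, beside 2.98% and 2.27%. Of 52, 45 and 53 collagen and matrix peaks in the 3 tables, 0, 2 and 2 were called, beside 2.98%, 2.27% and 1.96%. RBBP8NL had the lowest called fold of cauda over corpus, -2.93 in a 196-base peak, and Ubr4, a giant ubiquitin ligase, had -2.37 in the authors' deposited table.

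Over all 25 lists, calls were few, as they were over all peaks. Of 1536 intron-spanning rows of list genes in the 3 tables, 48 were called (3.13%), in 35 genes, against 563 of all 22990 intron-spanning rows (2.45%), a difference that was not tested. By table the share of list peaks was 3.02% for corpus over caput, 3.31% for cauda over caput and 3.05% for cauda over corpus, beside 2.98%, 2.27% and 1.96% of all peaks. Writers (7, 4 and 10 peaks in the 3 tables), erasers (2, 1 and 1), lysosome genes (8, 6 and 7) and steroid hormone genes (21, 20 and 22) had none, on numbers of peaks at which the background gives few. The readers had Fxr1, higher in cauda than in caput, and FXR2, lower in cauda than in corpus, 2 relatives of the fragile X protein that were named after their values were seen. Of 13, 9 and 9 peaks of macrophage and lymphocyte genes in the 3 tables, the PTPRC peak alone was called. Of 16, 14 and 13 peaks of endothelium, blood and basal cell genes, 1, 1 and 2 were called, namely EMCN (endomucin, of endothelium) in each table and Itga6, an integrin chain of basal cells named after its value was seen, in cauda over corpus. The EMCN peaks did not move alike. A 199-base peak had -0.84 for corpus over caput and was called, and the same peak had 0.019 for cauda over caput in the authors' deposited tables and was not called. A 149-base peak with the same end had 1.1 for cauda over corpus in the authors' deposited table and was not called. A 298-base peak was called at -0.87 for cauda over caput, and a 596-base peak with the same start was called at 0.011 for cauda over corpus, in the authors' deposited tables. The part of cell composition in the other results was not tested.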

How the data were processed

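Peaks come from 3 comparison tables and candidate adenosines from 1 list per region. Per the file headers, the authors deposited for each peak a p-value, an adjusted p-value, a ratio (fold) between 2 regions and its log2 value, and for each candidate a prediction score and class. The submitters' processing notes name Trimmomatic, HISAT2 and deepTools and no versions. Peak caller, differential test, site predictor and genome build: not given in the sources used here. The 9 expression columns carry codes that match no label and were not used; only symbols and ontology terms were taken from that file (9319 of 9629 genes had a symbol).

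With python 3.11.15, pandas 2.3.3 and scipy 1.17.1, intron bases were taken as end minus start minus length, a total over all introns of a peak. Listed starts count from 0 (0 candidates lay at a listed start, 1885 at the next base) and are printed counting from 1. Folds are of the first-named region over the second, as the folds of peaks listed in 1 region show. Each position was counted once per peak, with its highest score. Length weighting of contiguous peaks used 50-base bins, as planned, and values given by length use 6 wider length classes. Functions were tested on simulated data. No test of differences was made, as planned, since peaks are not replicates.

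Named peaks are, per comparison, the 10 lowest adjusted p-values and up to 8 list peaks. The 4 highest and the 4 lowest log2 folds with an unadjusted p under 0.05 are named too. Added to these are the peaks with the most intron bases and the richest in classed sites and in score. Those called in 2 tables and those at the length limit bring the number to 158 peaks in all. The text describes part of these beside other peaks of the same genes, and 1 gene that the rule names is not reported here. The peak rule and the 25 gene lists (628 entries) were chosen with earlier results of these data known. Alternatives were other length and intron limits, other classes, 1 peak per gene, genes with both kinds of peak and length weighting.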

Additional observations from a re-analysis of the deposited data

How the results depend on the processing

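The ratio of candidate density in intron-spanning to contiguous peaks was 1.034, 1.031 and 1.061 in caput, corpus and cauda, and it turned round under 3 planned settings. It was 0.815, 0.806 and 0.841 for classed positions, and 0.710, 0.703 and 0.730 for high or very high confidence positions. Per base of genome it was 0.0373, 0.0372 and 0.0371. That denominator adds introns to intron-spanning peaks only, so it can only lower the ratio and its turn is no result. Without the peaks denser than any contiguous peak it was 0.970, 0.967 and 0.989, a setting that takes peaks from the intron-spanning side only and so can only lower it. With the longest run of positions it was 1.005, 1.001 and 1.025. These last settings, and all those of the classed share, were chosen after seeing the data. The difference in classed share, intron-spanning minus contiguous, was -4.69, -4.95 and -4.63 percentage points, and it was -2.99, -3.08 and -3.06 for high or very high confidence and -3.47 in caput among genes with both kinds of peak. Numbers of called intron-spanning peaks were 231, 171 and 161, against 1306, 1291 and 1287 at an unadjusted p under 0.05 (16.4%, 17.2% and 16.4% of all peaks) and 55, 36 and 32 with an added 2-fold limit. The difference in median absolute log2 fold was -0.041, -0.049 and -0.049. It was -0.022, -0.029 and -0.029 in genes with both kinds and -0.030, -0.039 and -0.039 with contiguous peaks weighted by length, always lower in intron-spanning peaks. The median total of intron bases was 2968.5, 2934 and 3012 in peaks under 500 bases. With no limit on length it was 3506.5 (cauda over caput) and 3575 (cauda over corpus). The other 45 values under an alternative kept their direction and stayed within their interval or, for counts, within 1.5 times, the counts among them reaching 132 (cauda over caput) and 118 (cauda over corpus) called peaks under 500 bases. No paired analysis was possible because the comparison tables carry no values per library, and for that reason no replicate could be left out. The depth behind each peak is unknown.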

Other observations

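Few intron-spanning peaks of genes for translation, folding, redox defence and the proton pump were called. Translation factors had 1 higher and 1 lower of 35 for cauda over corpus, beside 1.24% and 0.719% of all peaks. None of their 27 and 29 peaks was called for corpus over caput and cauda over caput, beside 2.98% and 2.27%. Of 19, 15 and 17 such peaks in cytosolic ribosomal protein genes, 1 was called over the 3 tables, beside 2.98%, 2.27% and 1.96% of all peaks, a 194-base peak of RPL7A that was higher in cauda than in caput, with a log2 fold of 0.28 (the authors' deposited table, adjusted p = 0.023). Pdia6, a protein disulfide isomerase of the endoplasmic reticulum, had 0.070 for corpus over caput (the authors' deposited table, adjusted p = 0.042). Its list, heat shock and folding in that organelle, had 1 higher and 1 lower of 23 there, beside 1.12% and 1.86% of all peaks. It had 1 lower of 27 for cauda over caput, beside 0.861%, and 0 of 21 called for cauda over corpus, beside 1.96%. GCLM, the modifier subunit of the enzyme that starts glutathione synthesis, had 0.415 for cauda over caput (the authors' deposited table, adjusted p = 0.0066). It was the only call among 13, 13 and 15 antioxidant and glutathione peaks in the 3 tables, beside 2.98%, 2.27% and 1.96% of all peaks. ATP6V1G3, a subunit of the proton pump, had -0.99 for corpus over caput (the authors' deposited table, adjusted p = 0.036). It was the only call among 10, 8 and 5 clear cell and proton pump peaks, beside the same shares of all peaks. These genes were named after their values were seen.

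Upf2, a factor of nonsense-mediated decay that works with the exon junction complex, was lower in corpus than in caput, at -0.765 (adjusted p = 0.036), and higher in cauda than in corpus, at 0.89 (adjusted p = 0.026), in the authors' deposited tables. The zinc finger gene Znf638 showed the same pair of directions, at -0.53 and 0.75 in the authors' deposited tables. Both comparisons use the corpus libraries, so the opposite signs are not independent.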
